A study of Drosophila melanogaster with 24 samples.

Results

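The genes that encode the subunits of the proteasome were followed in sorted clock neurons of the fly Drosophila melanogaster. The members were the rows of the UMI count table whose symbol begins with Rpn or Rpt and a digit, or with Prosalpha or Prosbeta, and they numbered 46 of the 15610 genes listed. Of these, 32 encode the main subunits, and 14 are paralogues named for a main subunit with a final R or T, which are described apart. A UMI is a unique molecular identifier, a random tag that lets each tagged cDNA molecule be counted once.

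The cells were clock neurons, the brain cells that keep daily time, labelled with GFP and collected by fluorescence-activated sorting from male flies at ZT14, which is 14 h after lights-on. Every group carried the clock driver CLK856-Gal4 with UAS-Cas9 and UAS-eGFP, so the nuclease and the fluorescent protein were present in the controls as well. The control genotype, called Cas9, had no guide construct. The 3 mutant genotypes, Drp1-mut, Marf-mut and Opa1-mut, also carried UAS-3XgRNA-Drp1, UAS-3XgRNA-Marf or UAS-3XgRNA-Opa1. All 3 targets are GTPases that shape mitochondria: Drp1 splits them, Marf (a mitofusin) joins their outer membranes, and Opa1 joins their inner membranes. Flies were about 15 days old (young) or about 35 days old (old), which made 8 groups of 3 libraries. About 1000 cells went into each library. A group's 3 libraries came from the same suspension of 80 to 100 brains. The tests between groups therefore measured the spread between sorted pools of a suspension, and genotype or age cannot be told apart from the suspension.

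The proteasome is the protease that breaks down proteins marked with ubiquitin in the cytosol and nucleus. Its core particle is a barrel of alpha rings, which gate the entrance, and beta rings, which hold the proteolytic sites inside. A regulatory particle caps the barrel: its base of Rpt ATPases unfolds the substrate, and its lid removes the ubiquitin chain. In flies, the transcription factor cnc, the counterpart of the mammalian Nrf factors, is known to raise subunit transcripts together when proteasome activity falls. In neurons the proteasome also clears clock proteins on a daily schedule, among them tim and per.

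The 24 libraries held between 684175 and 2889269 UMIs. All 13 clock neuron markers, among them Pdf, tim and per, had UMIs in every group, with a summed level of 16262 to 36243 CPM (counts scaled to a common library total) per library. Glial markers summed to 346 to 1022 CPM, and photoreceptor markers to 11.5 to 118 CPM. The guide targets were lower in their own old mutant groups. Drp1 stood at 85.9 ± 16.4 CPM (SD, n = 3) in old Drp1-mut and 161 ± 5.49 CPM in old Cas9. Opa1 stood at 93.8 ± 3.52 CPM in old Opa1-mut and 151 ± 3.34 CPM in old Cas9, and Marf at 116 ± 8.59 CPM in old Marf-mut and 139 ± 3.18 CPM in old Cas9. In young flies Drp1 stood at 98.7 ± 23.0 CPM in Drp1-mut and 143 ± 15.0 CPM in Cas9. Opa1 stood at 103 ± 21.8 CPM in young Opa1-mut and 143 ± 13.5 CPM in young Cas9. Marf stood at 118 ± 22.0 CPM in young Marf-mut, near its 120 ± 6.01 CPM in young Drp1-mut, and at 142 ± 14.9 CPM in young Cas9. These are transcript levels and do not show editing. In pools of cells, a smaller share of cells that use a gene and less of its RNA per cell cannot be told apart.

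The 32 main subunits comprise the 7 alpha ring genes Prosalpha1 to Prosalpha7 and the 7 beta ring genes Prosbeta1 to Prosbeta7, which together make the core. Of the beta ring, Prosbeta1, Prosbeta2 and Prosbeta5 carry the caspase-like, trypsin-like and chymotrypsin-like activities, and Prosbeta3, Prosbeta4, Prosbeta6 and Prosbeta7 are non-catalytic. The regulatory particle adds the 6 ATPases Rpt1 to Rpt6, the base scaffolds Rpn1 and Rpn2, the ubiquitin receptors Rpn10 and Rpn13, and 8 lid genes. In the lid, Rpn11 is the deubiquitinase, Rpn8 is its partner, and Rpn3, Rpn5, Rpn6, Rpn7, Rpn9 and Rpn12 are scaffolds. The genes lie apart from each other: 4 are on chromosome 2L, 10 on 2R, 5 on 3L, 9 on 3R and 4 on X, in the Ensembl annotation of release 6 of the genome (dm6). The closest pair of starts, those of Rpn9 and Rpt5, is 21501 bases apart. None of the 32 shares exon bases with another gene on its own strand, and 13 share some with a gene on the other strand. Whether strand was used in counting is not given in the sources used here, so for these 13 reads of the partner cannot be told apart.

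All 32 main subunits were measured in every library, with 49 to 894 UMIs per gene and library. Together they took 187405 of 36323267 UMIs. Levels are given as CPM scaled with TMM, a factor per library that makes the bulk of genes comparable. Averaged over the 24 libraries, single subunits stood between 86.5 and 291 CPM, with a median of 148 CPM. Each count is of 5′-tagged molecules and levels were not divided by transcript length, so subunits were not ranked against each other. Subunits moved little between groups. The highest group mean of a subunit was 1.14 to 1.49 times its lowest, with a median of 1.32, and the coefficient of variation among the libraries of a group had a median of 8.30%.

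**Figure D1:**
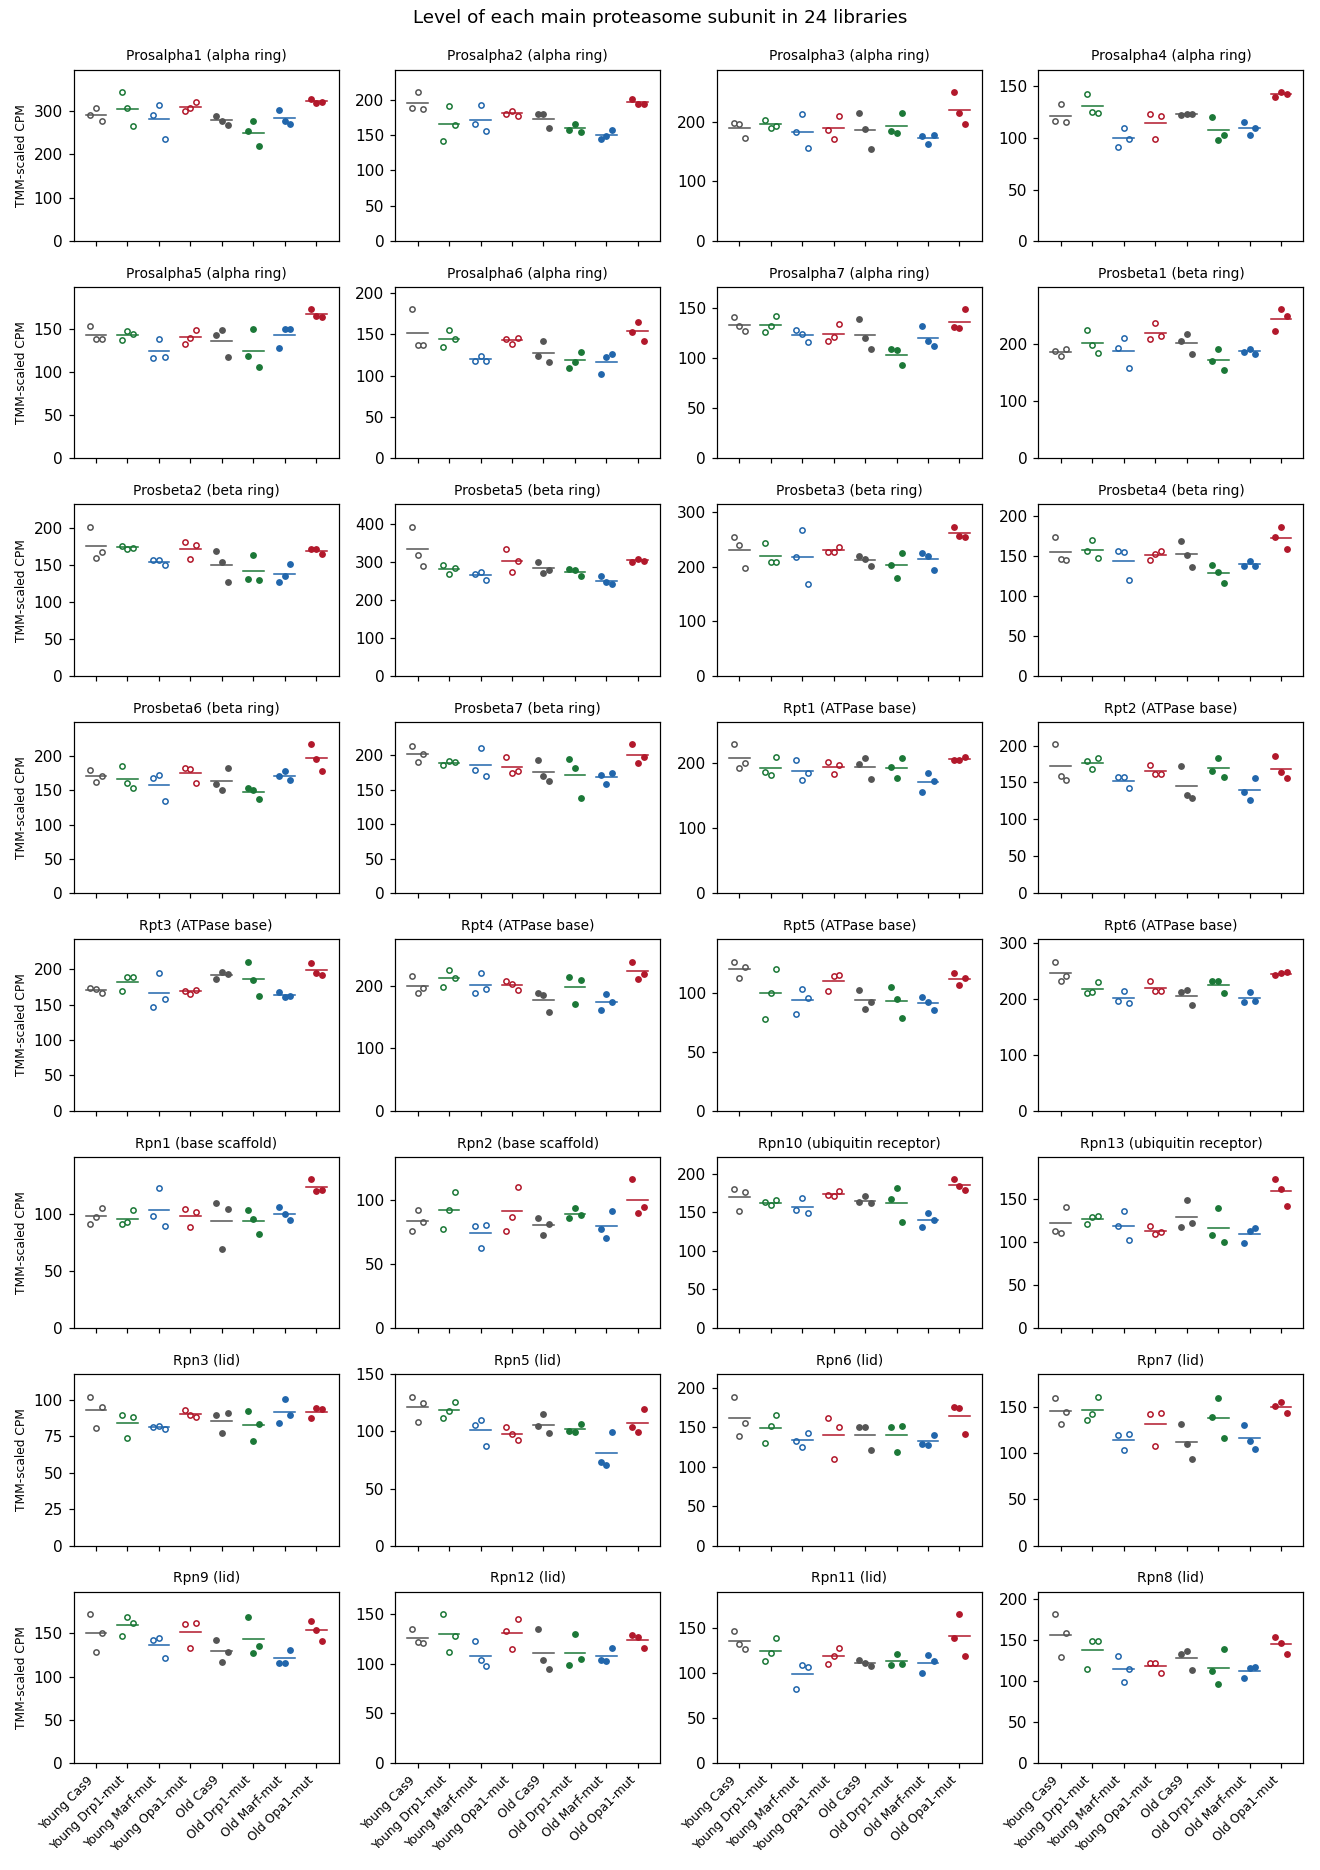
Each panel plots 1 main subunit, with the TMM-scaled CPM of the 24 libraries on the vertical axis (from 0) and the 8 groups on the horizontal axis. Open points are young libraries, filled points are old libraries, and bars are group means. The old Opa1-mut mean is the highest of the 8 for 20 subunits, and the old Marf-mut mean is the lowest for 18.

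Summed over the 32 subunits, the old Opa1-mut libraries held the most proteasome transcript and the old Marf-mut libraries the least. The sum was 5863, 5698 and 5493 CPM in old Opa1-mut, 5166, 4915 and 4575 CPM in old Cas9 and 4549.8, 4617 and 4649 CPM in old Marf-mut. Old Drp1-mut summed to 4883, 4849.9 and 4564 CPM. The old Opa1-mut libraries did not overlap those of any other old group, while old Drp1-mut overlapped both old Cas9 and old Marf-mut. In young flies the sums were 5760.2, 5129.6 and 5181 CPM in Cas9, 5158, 5201 and 5284 CPM in Drp1-mut, 4775, 5085 and 4412 CPM in Marf-mut and 5243, 4956 and 5250.0 CPM in Opa1-mut. Young Cas9, Drp1-mut and Opa1-mut overlapped, and all 3 young Marf-mut libraries lay below the lowest young Cas9 library. Ordered by mean, the groups ran from old Opa1-mut (5685 ± 185 CPM, SD, n = 3) over young Cas9 (5357 ± 350), young Drp1-mut (5215 ± 64.1), young Opa1-mut (5150 ± 168), old Cas9 (4885 ± 297), old Drp1-mut (4766 ± 175) and young Marf-mut (4757 ± 337) to old Marf-mut (4605 ± 50.5). Every neighbouring pair in that order overlapped in its libraries. By single genes, the highest group mean fell in old Opa1-mut for 20 subunits, in young Cas9 for 9, in young Drp1-mut for 2 and in young Opa1-mut for 1. The lowest fell in old Marf-mut for 18, in old Drp1-mut for 7, in young Marf-mut for 6 and in old Cas9 for 1.

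**Figure D2:**
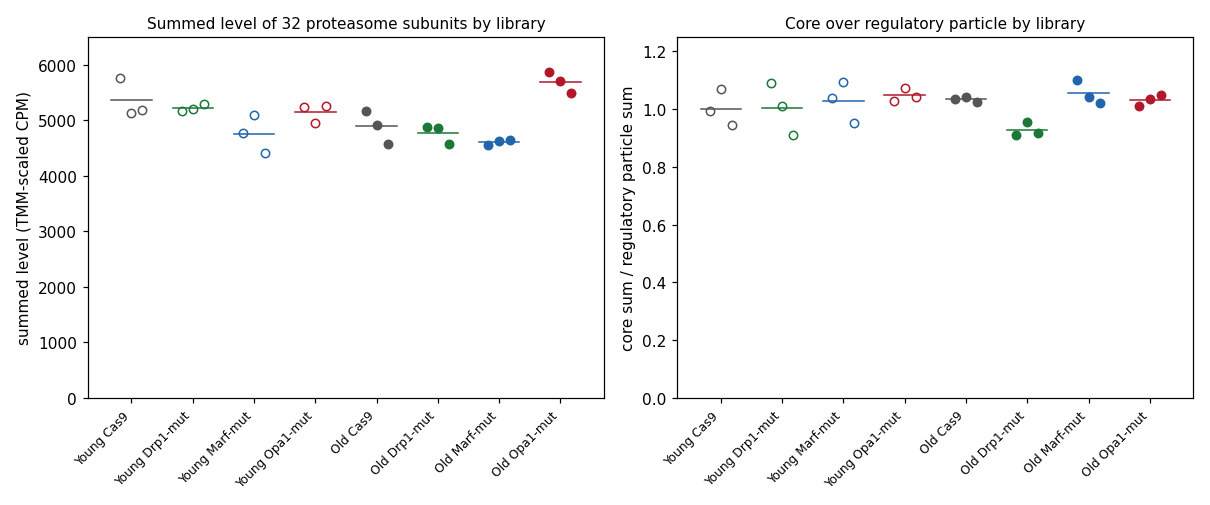
The left panel plots the summed TMM-scaled CPM of the 32 main subunits, and the right panel the ratio of the core sum to the regulatory particle sum, for each of the 24 libraries in 8 groups (open, young; filled, old; bars, group means). The old Opa1-mut sums lie above the other old groups, and the old Drp1-mut ratios, 0.909 to 0.956, lie below the other old groups.

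The core and the regulatory particle had nearly equal sums, with a group mean ratio of at most 1.05 and above 1 in every group but old Drp1-mut (0.928 ± 0.0252, SD, n = 3). The ratio of the core sum to the regulatory particle sum was 1.04, 1.04 and 1.03 in old Cas9, 1.1, 1.04 and 1.02 in old Marf-mut and 1.01, 1.04 and 1.05 in old Opa1-mut. In old Drp1-mut it was 0.909, 0.956 and 0.918, below every other old library. The young Drp1-mut ratios were 1.09, 1.01 and 0.91, the widest spread of any group. The last of these, the deepest library of all, lay within the old Drp1-mut range. So did young Cas9 replicate 3 (0.943, with 2141193 UMIs) and young Marf-mut replicate 3 (0.952, with 2104854 UMIs). Old Drp1-mut held the 2 shallowest libraries of the 24 (684175 to 1148217 UMIs over its 3), and the part of depth in the ratio was not tested.

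Each comparison between groups was fitted over all genes that passed a filter on low counts, with edgeR's quasi-likelihood test, and a gene was called at a Benjamini-Hochberg adjusted p under 0.05. All 32 main subunits passed the filter in every comparison. For young flies the question was whether subunit transcripts differed between each mutant and Cas9 at about 15 days. No subunit was called in young Drp1-mut against young Cas9, where 0.0831% of all genes tested were called, nor in young Marf-mut (0.346% of all genes) or young Opa1-mut (2.94%). At an unadjusted p under 0.05 the counts were 0, 7 and 3 of 32, beside 4.94%, 9.75% and 18.1% of all genes. DESeq2 called 0 in each. In young Marf-mut 29 of 32 subunits were below 0, with a median log2 fold change of -0.15 beside 0.01 over all genes. The median was -0.02 in young Drp1-mut and -0.04 in young Opa1-mut, with 17 and 21 of 32 below 0. The young Marf-mut libraries of 9 subunits lay wholly below those of young Cas9, which held for 8.34% of all genes.

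The lid pair Rpn11 and Rpn8 had the smallest p in young Marf-mut. Rpn11, the deubiquitinase, stood at 82.4, 108 and 107 CPM in young Marf-mut and 147, 132 and 127 CPM in young Cas9 (log2 fold change -0.43, SE 0.14, adjusted p = 0.282). Its libraries did not overlap, but the difference did not pass the threshold. Rpn8 stood at 129.9, 98.5 and 115 CPM in young Marf-mut and 182, 129 and 159 CPM in young Cas9, with overlap in 1 control library (-0.44, SE 0.15, adjusted p = 0.304). In young Opa1-mut, Rpn8 stood at 122, 122 and 110.2 CPM, below all young Cas9 libraries (-0.40, SE 0.14, adjusted p = 0.136). Without replicate 2 of young Cas9, Rpn8 was called in young Opa1-mut. Prosbeta5, the chymotrypsin-like protease, stood at 268, 272 and 252 CPM in young Marf-mut, 292, 267 and 284 CPM in young Drp1-mut and 392, 319 and 288 CPM in young Cas9. The first young Cas9 library was the highest of all 24 for this gene, and its values were -0.32, SE 0.13, adjusted p = 0.409 in Marf-mut and -0.24, SE 0.12, adjusted p = 0.997 in Drp1-mut.

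Of the other subunits with the smallest p in young mutants, Prosalpha2 stood at 141, 191 and 165 CPM in young Drp1-mut and 188, 211 and 186 CPM in young Cas9 (-0.22, SE 0.13, adjusted p = 0.997). The ATPase gene Rpt6 stood at 210.2, 212 and 229 CPM in young Drp1-mut and 266, 232 and 241 CPM in young Cas9 (-0.17, SE 0.11, adjusted p = 0.997). Rpt6 libraries did not overlap, and Prosalpha2 libraries did. Prosbeta1, the caspase-like protease, had the opposite sign in young Opa1-mut, at 208, 236 and 213 CPM against 188, 178 and 189.8 CPM (0.26, SE 0.10, adjusted p = 0.213). The lid scaffold Rpn5 stood at 104, 97.9 and 92.4 CPM in young Opa1-mut and 131, 109 and 125 CPM in young Cas9 (-0.30, SE 0.13, adjusted p = 0.246). A test for any difference among the 4 young genotypes called no subunit, where 1.48% of all genes were called. In that test 7 of 32 subunits had an unadjusted p under 0.05, beside 13.3% of all genes, and DESeq2 called 0.

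**Figure D3:**
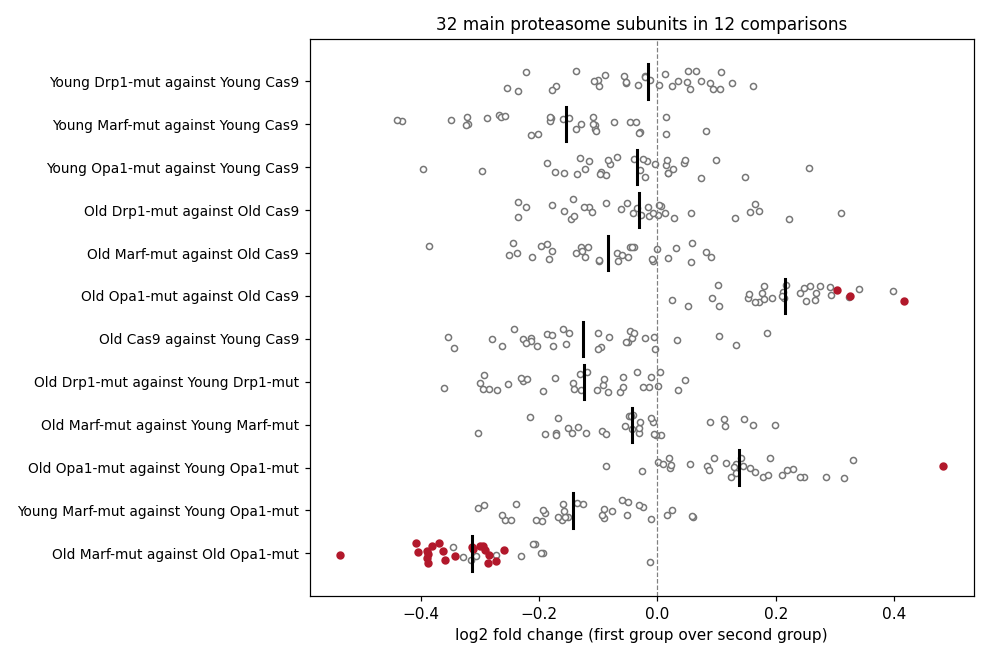
Each point is 1 of the 32 main subunits, plotted at its log2 fold change (first group over second group) in 12 comparisons; filled points passed an adjusted p under 0.05 in edgeR and black bars are medians. Old Opa1-mut lies to the right of 0 against old Cas9 (median 0.22), and old Marf-mut lies to the left of 0 against old Opa1-mut (median -0.31).

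In old flies, edgeR but not DESeq2 called Prosbeta3 of the core, Rpt4 of the base and Rpn7 of the lid higher in Opa1-mut. Against old Cas9, all 32 subunits were above 0 in old Opa1-mut, with a median log2 fold change of 0.22 beside 0.00 over all genes. The test called 3 of 32 subunits, all higher, where 13.2% of all genes were called and 7.54% were called higher. The share of members called was thus near the background in that direction. At an unadjusted p under 0.05 there were 13 of 32 subunits, beside 25.6% of all genes. The libraries of 16 subunits lay wholly above those of old Cas9, which held for 16.3% of all genes.

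The 3 called subunits were Prosbeta3, Rpt4 and Rpn7. Prosbeta3, on chromosome 3R from 9005313 to 9006226, is a structural subunit of the beta ring. It stood at 273, 257 and 255 CPM in old Opa1-mut and 219.9, 214 and 202 CPM in old Cas9 (log2 fold change 0.30, SE 0.09, adjusted p = 0.027). Its old Drp1-mut libraries held 202, 180.3 and 226 CPM and its old Marf-mut libraries 226, 220.0 and 195 CPM, all below the old Opa1-mut ones. The young libraries held 254, 239.9 and 197 CPM in Cas9, 244, 208 and 209 CPM in Drp1-mut, 219, 267 and 169 CPM in Marf-mut and 226, 228 and 237 CPM in Opa1-mut. A young Marf-mut library thus reached the old Opa1-mut level.

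Rpt4, on chromosome X from 6289470 to 6291245, is 1 of the ATPases that pull the substrate into the core. It stood at 239, 212 and 219 CPM in old Opa1-mut and 189, 186 and 158 CPM in old Cas9 (0.33, SE 0.10, adjusted p = 0.0362). Old Drp1-mut held 214, 172 and 209 CPM, which overlapped old Opa1-mut, and old Marf-mut held 162, 187 and 174 CPM, which did not. In young flies it stood at 216, 188 and 197 CPM in Cas9, 199, 225 and 212 CPM in Drp1-mut, 188, 220.0 and 195 CPM in Marf-mut and 208, 202 and 194 CPM in Opa1-mut. Rpn7, on chromosome 3R from 22460662 to 22462054, is a scaffold of the lid. It stood at 151, 155 and 144 CPM in old Opa1-mut and 132, 110.4 and 93.7 CPM in old Cas9 (0.42, SE 0.13, adjusted p = 0.0361). The young Cas9 libraries held 159, 131 and 145 CPM, so the old Opa1-mut level lay within the range of young controls, and the young Opa1-mut libraries held 142, 108 and 144 CPM.

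Each of these 3 calls depended on the libraries and the test. DESeq2 called 0 of 32 subunits in old Opa1-mut against old Cas9, and so did edgeR with a covariate for log2 depth. Old Opa1-mut libraries were deeper (1468850 to 1843669 UMIs) than the old Cas9 libraries (1109778 to 1313809). These depths did not overlap, so the covariate and the group can hardly be told apart in that fit. Over all genes the calls fell from 939 to 202 with it. Leaving out replicate 2 or 3 of old Cas9, or replicate 1 or 2 of old Opa1-mut, left 0 calls. Leaving out replicate 3 of old Opa1-mut left 1, and leaving out replicate 1 of old Cas9 gave 4. There were 10 with total count scaling, 5 with a replicate block, and 1 with all 24 libraries in a single fit. General neuron markers summed to 1771 to 1829 CPM in old Opa1-mut and 2098 to 2474 CPM in old Cas9, with 4 of 4 detected in both. All 4 were below 0, with a median of -0.30 and 2 called lower, where 402 of 7119 genes tested were called lower. No glial or clock neuron marker was called there. Glial markers, 8 of 8 detected, summed to 535 to 685 CPM and 346 to 671 CPM. Their part in the result was not tested.

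No subunit was called in old Marf-mut or old Drp1-mut against old Cas9, where 4.58% and 0.394% of all genes were called. At an unadjusted p under 0.05 there were 4 and 0 of 32, beside 17.1% and 7.52% of all genes. DESeq2 called 0 in both. In old Marf-mut 25 of 32 subunits were below 0, with a median of -0.08. With total count scaling 16 of 32 were below 0, but all genes shifted by 0.0872 there, and the subunits' median relative to that of all genes stayed at -0.0951, beside -0.0953 with TMM. In old Drp1-mut 20 of 32 were below 0, with a median of -0.03. These 3 comparisons share the old Cas9 libraries. The old Marf-mut subunits with the smallest p were Rpn5, Rpt3 and Rpn10. Rpn5, a lid scaffold, stood at 73.6, 70.6 and 99.4 CPM in old Marf-mut and 104, 115 and 98.4 CPM in old Cas9 (-0.39, SE 0.15, adjusted p = 0.161). Marf-mut replicate 3 overlapped the controls, and without that library Rpn5 was called at -0.57. The ATPase gene Rpt3 stood at 167, 161 and 162 CPM in old Marf-mut and 186, 196 and 193 CPM in old Cas9, without overlap (-0.24, SE 0.10, adjusted p = 0.207). The ubiquitin receptor gene Rpn10 stood at 131, 149 and 139.6 CPM and 163, 171 and 162 CPM, also without overlap (-0.24, SE 0.11, adjusted p = 0.247).

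In old Drp1-mut the smallest p belonged to Rpn7, Prosbeta1 and Prosbeta4, in both directions. Rpn7 stood at 139, 160.1 and 116 CPM against 132, 110.4 and 93.7 CPM in old Cas9 (0.31, SE 0.17, adjusted p = 0.713). Prosbeta1 stood at 169, 190.4 and 155 CPM against 204, 217 and 181 CPM (-0.22, SE 0.13, adjusted p = 0.769). The structural beta gene Prosbeta4 stood at 138, 129.8 and 116 CPM against 169, 151 and 136 CPM (-0.24, SE 0.15, adjusted p = 0.796). All of these overlapped. By part of the complex, the alpha and beta rings had medians of -0.12 and -0.09 in old Drp1-mut, and the ATPases and the base scaffolds 0.07 and 0.09, with no gene called in any part.

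The fusion mutants were then set directly against each other, a comparison that uses no control library. In old flies 21 of 32 subunits were called, all lower in Marf-mut than in Opa1-mut, where 15.9% of all genes were called and 9.14% were called lower. All 32 were below 0, with a median log2 fold change of -0.31 beside 0.01 over all genes. Of the 32, 29 had an unadjusted p under 0.05, beside 28.5% of all genes. The libraries of 25 subunits lay wholly below those of old Opa1-mut, which held for 16.6% of all genes. The called genes were 4 of 7 in the alpha ring, 6 of 7 in the beta ring, 4 of 6 ATPases, 0 of 2 base scaffolds, both ubiquitin receptors and 5 of 8 in the lid.

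**Figure D4:**
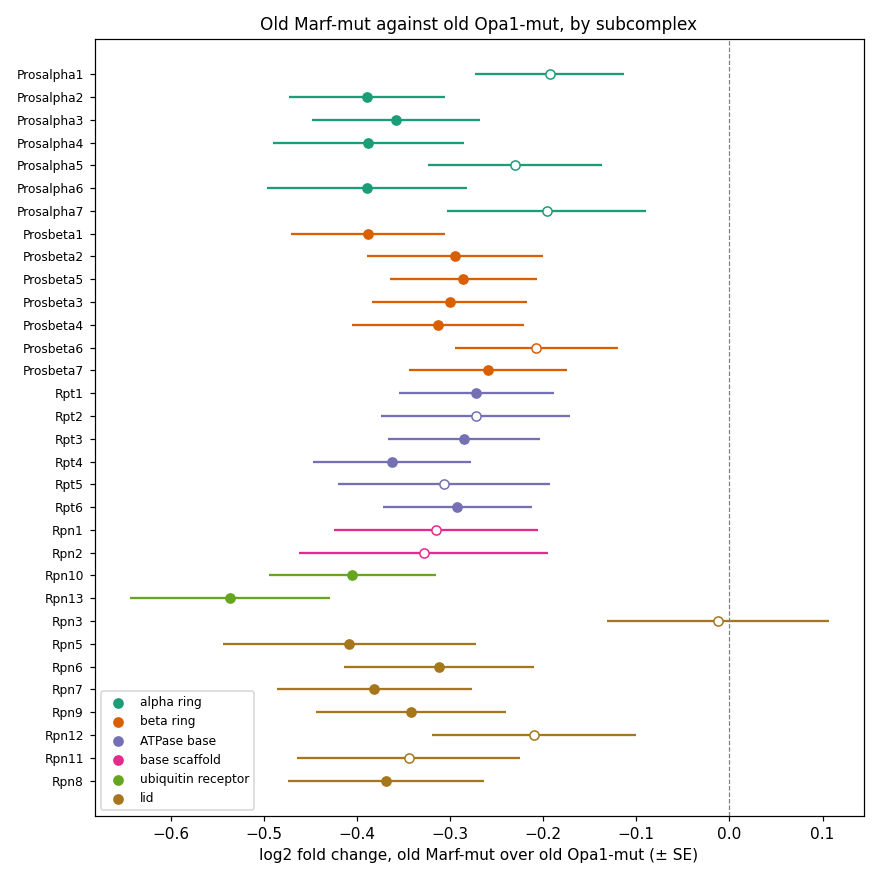
Points are the log2 fold changes of the 32 main subunits in old Marf-mut over old Opa1-mut, with bars of 1 SE, coloured by part of the complex; filled points passed an adjusted p under 0.05 in edgeR. Rpn13 lies farthest from 0 (-0.54), and the lid scaffold Rpn3 lies nearest (-0.01).

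The ubiquitin receptors showed the largest differences of the complex by median (-0.47). Rpn13 binds ubiquitin at the top of the regulatory particle and, as known from mammalian cells, docks a deubiquitinase there; its gene lies on chromosome 2R from 13958545 to 13960404. It stood at 98.6, 114 and 117 CPM in old Marf-mut and 174, 162 and 142 CPM in old Opa1-mut (-0.54, SE 0.11, adjusted p = 0.0011). The old Cas9 libraries held 118, 149 and 123 CPM and overlapped old Opa1-mut only. Rpn10, which holds the chain by its ubiquitin-binding motifs, lies on chromosome 3L from 21537000 to 21538582. It stood at 131, 149 and 139.6 CPM in old Marf-mut and 193, 183 and 179 CPM in old Opa1-mut (-0.41, SE 0.09, adjusted p = 0.00272). Its old Cas9 libraries lay between both mutants without overlap.

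In the alpha ring, Prosalpha2, on chromosome 3R from 12431321 to 12432556, stood at 144, 149 and 157 CPM in old Marf-mut and 200.3, 194 and 194 CPM in old Opa1-mut (-0.39, SE 0.08, adjusted p = 0.00219). Prosalpha3 stood at 177, 163 and 177 CPM and 249.7, 215 and 196 CPM in the same order (-0.36, SE 0.09, adjusted p = 0.00779). Prosalpha4 stood at 116, 103 and 109 CPM and 140.0, 145 and 142 CPM (-0.39, SE 0.10, adjusted p = 0.011). None of these overlapped, and the Prosalpha4 libraries of old Opa1-mut lay within 6 CPM of each other. Prosalpha6 stood at 102, 123 and 126 CPM and 152, 165 and 142 CPM (-0.39, SE 0.11, adjusted p = 0.0142). Prosalpha1 stood at 304, 278 and 269.7 CPM and 328, 318 and 322 CPM, also without overlap, and did not pass (-0.19, SE 0.08, adjusted p = 0.106). Prosalpha5 (-0.23, SE 0.09, adjusted p = 0.1) and Prosalpha7 (-0.20, SE 0.11, adjusted p = 0.232) did not pass either.

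In the beta ring all 3 protease genes were lower in old Marf-mut. Prosbeta1, on chromosome 2R from 16013805 to 16014787, stood at 186, 191 and 183 CPM in old Marf-mut and 221, 259 and 248 CPM in old Opa1-mut (-0.39, SE 0.08, adjusted p = 0.00199). Prosbeta2, the trypsin-like protease, stood at 127, 135 and 151 CPM and 172, 171 and 164 CPM (-0.29, SE 0.09, adjusted p = 0.0346). Prosbeta5 stood at 264, 247 and 241 CPM and 300.5, 308 and 303 CPM (-0.29, SE 0.08, adjusted p = 0.0144). The libraries of these 3 genes did not overlap between the mutants. Of the non-catalytic genes, Prosbeta3 held the values given above (-0.30, SE 0.08, adjusted p = 0.0149). Prosbeta4 stood at 137, 144 and 137 CPM and 174, 186 and 158 CPM (-0.31, SE 0.09, adjusted p = 0.0217). Prosbeta7 stood at 172, 158 and 175 CPM and 216, 189 and 197 CPM (-0.26, SE 0.08, adjusted p = 0.038). These also did not overlap, while Prosbeta6 overlapped and did not pass (-0.21, SE 0.09, adjusted p = 0.116).

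Among the ATPases of the base, Rpt4 held the values given above (-0.36, SE 0.08, adjusted p = 0.00419). Rpt6 stood at 194, 212 and 197 CPM in old Marf-mut and 241, 245 and 247 CPM in old Opa1-mut (-0.29, SE 0.08, adjusted p = 0.0137). Its old Opa1-mut libraries lay within 6 CPM of each other and within the range of young Cas9. Rpt3 stood at 167, 161 and 162 CPM and 209, 194 and 191 CPM (-0.29, SE 0.08, adjusted p = 0.0186). Rpt1 stood at 156, 185 and 173 CPM and 204, 205 and 209 CPM (-0.27, SE 0.08, adjusted p = 0.0264). None of these 4 overlapped. Rpt2 (-0.27, SE 0.10, adjusted p = 0.0711) and Rpt5 (-0.31, SE 0.11, adjusted p = 0.0692) did not pass, nor did the scaffolds Rpn1 (-0.32, SE 0.11, adjusted p = 0.0521) and Rpn2 (-0.33, SE 0.13, adjusted p = 0.101).

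In the lid, Rpn7 stood at 130.1, 113 and 105 CPM in old Marf-mut beside the old Opa1-mut values given above (-0.38, SE 0.10, adjusted p = 0.0141). Rpn8 stood at 104, 115 and 117 CPM and 154, 147 and 133 CPM (-0.37, SE 0.11, adjusted p = 0.0175). Rpn9 stood at 116, 116 and 131 CPM and 165, 154 and 142 CPM (-0.34, SE 0.10, adjusted p = 0.023). These 3 did not overlap between the mutants. Rpn6 stood at 129, 127 and 140.2 CPM and 176, 174 and 142 CPM (-0.31, SE 0.10, adjusted p = 0.0377). Rpn5 stood at 73.6, 70.6 and 99.4 CPM and 104, 99.1 and 119.9 CPM, with overlap of 1 Marf-mut and 1 Opa1-mut library (-0.41, SE 0.14, adjusted p = 0.0424). The deubiquitinase Rpn11 (-0.34, SE 0.12, adjusted p = 0.0526) and the scaffold Rpn12 (-0.21, SE 0.11, adjusted p = 0.214) did not pass. Rpn3 lay nearest 0, at 84.3, 101 and 89.9 CPM in old Marf-mut and 87.8, 94.3 and 93.9 CPM in old Opa1-mut (-0.01, SE 0.12, adjusted p = 0.958).

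The count of calls between the old fusion mutants depended on the test. DESeq2 called 4 of 32 (Rpn13, Prosbeta1, Rpn10 and Prosalpha2), and edgeR with all 24 libraries in a single fit called 8. Leaving out old Marf-mut replicates 1 or 2 gave 11 or 12 calls, and leaving out old Opa1-mut replicates 1 or 2 gave 10 or 11. Rpn13, Rpn10, Prosalpha2, Prosbeta1 and Rpt4 were called whichever of the 6 libraries was left out. The depths of both groups overlapped (1394517 to 1735212 UMIs in old Marf-mut). Photoreceptor markers, 7 of 7 detected in both, summed to 40.2 to 65.8 CPM in old Marf-mut and 14.3 to 17.1 CPM in old Opa1-mut. Glial markers summed to 686 to 869 CPM in old Marf-mut, and general neuron markers to 2126 to 2214 CPM, beside the old Opa1-mut values given above. The 13 clock neuron markers were all below 0 in this comparison, with a median of -0.40 and 4 called lower, where 9.14% of all genes were called lower. They summed to 24881 to 28400 CPM in old Marf-mut and 27619 to 36243 CPM in old Opa1-mut. Called higher in old Marf-mut were 2 of 4 general neuron, 2 of 8 glial, 1 photoreceptor and 1 fat body or hemocyte marker, where 492 of 7244 genes tested were called higher. Their part in the result was not tested.

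In young flies the same comparison called no subunit, where 1.39% of all genes were called. There 28 of 32 subunits were below 0, with a median of -0.14, and DESeq2 called 0. An unadjusted p under 0.05 was seen in 2 of 32, beside 12.2% of all genes. The change between ages was tested on its own, a comparison chosen after seeing the data. It called 0 of 32 subunits, with 0% of all genes called, and DESeq2 called 0. In that test 30 of 32 subunits were below 0, with a median of -0.19. An unadjusted p under 0.05 was seen in 5 of 32, beside 8.5% of all genes. The smallest p was that of Rpn13 (-0.60, SE 0.17, adjusted p = 0.291). The difference between both fusion mutants is therefore not shown to depend on age.

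A test for any difference among the 4 old genotypes, which gives no direction, called 9 of 32 subunits where 17.5% of all genes were called. They were Prosbeta1 (adjusted p = 0.00448), Rpn13 (0.0142), Prosbeta3 (0.0219), Prosalpha2 (0.0233), Prosalpha1 (0.0372), Rpt4 (0.0386), Prosalpha4 (0.0398), Rpn10 (0.0436) and Prosbeta4 (0.0484) by edgeR. The rings of the core, which hold 14 of the 32 subunits, supplied 6 of these 9. Prosalpha1 was called in none of the pairs of groups tested. Its values were 328, 318 and 322 CPM in old Opa1-mut, 304, 278 and 269.7 CPM in old Marf-mut, 289.8, 278 and 268 CPM in old Cas9 and 254, 277 and 221 CPM in old Drp1-mut, with old Opa1-mut above every other old library. DESeq2 called 2 of 32 in this test. The edgeR count was 1 without replicate 1 or 2 of old Opa1-mut, 4 without its replicate 3, 4 and 3 without replicates 1 and 2 of old Marf-mut, 6 without replicate 3 of old Marf-mut, and 4 without replicate 2 of old Cas9.

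Age was compared within each genotype. In Cas9 and in Drp1-mut 28 of 32 subunits were below 0 (lower when old), with medians of -0.13 and -0.12, and none was called. The share of all genes called was 2.45% for Cas9 and 0.705% for Drp1-mut. In that order, 3 and 1 of 32 subunits had an unadjusted p under 0.05, beside 15.4% and 11.8% of all genes. With log2 depth as a covariate the Cas9 median was 0.00, and the old Cas9 libraries (1109778 to 1313809 UMIs) were shallower than the young ones (1583625 to 2141193 UMIs). Since these depths did not overlap, the covariate and age can hardly be told apart in that fit. Rpt5, an ATPase gene, had the smallest p in Cas9, at 103, 86.9 and 92.8 CPM when old and 127, 113 and 123 CPM when young (-0.34, SE 0.14, adjusted p = 0.221). In Marf-mut 25 of 32 were below 0, with a median of -0.04. No subunit was called, where 3.39% of all genes were, or had an unadjusted p under 0.05, where 15.5% of all genes did. DESeq2 called 0 of 32 in these 3 comparisons.

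In Opa1-mut Rpn13 rose with age. There 30 of 32 subunits were above 0 in old against young Opa1-mut, with a median of 0.14 beside 0.00 over all genes. The test called 1 of 32, higher, where 12.4% of all genes were called and 7.62% were called higher. An unadjusted p under 0.05 was seen in 7 of 32, a share below the 25.9% of all genes. The libraries of 14 subunits lay wholly above those of young Opa1-mut, which held for 16.8% of all genes. The called gene was Rpn13, at 174, 162 and 142 CPM in old Opa1-mut and 119, 109.9 and 111 CPM in young Opa1-mut (log2 fold change 0.48, SE 0.11, adjusted p = 0.00739). It was called whichever of the 6 libraries was left out, and DESeq2 called it too. Its other young libraries held 113, 111 and 142 CPM in Cas9, 121, 129 and 131 CPM in Drp1-mut and 119, 136 and 103 CPM in Marf-mut, and old Drp1-mut held 109, 139.9 and 99.9 CPM. Of the 24 libraries, the 2 highest for Rpn13 were thus old Opa1-mut libraries. The scaffold gene Rpn1 came next, at 130.4, 120.1 and 121 CPM when old and 104, 88.6 and 102 CPM when young, without overlap (0.33, SE 0.11, adjusted p = 0.0676).

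Whether a mutant's difference from Cas9 changed between ages was tested with an interaction term. For Opa1-mut all 32 subunits were above 0, with a median of 0.27 beside 0.02 over all genes. An unadjusted p under 0.05 was seen in 9 of 32, beside 20.4% of all genes. None was called, where 5.63% of all genes were called, and DESeq2 called 0. The smallest adjusted p belonged to Rpn8 (0.58, SE 0.18, adjusted p = 0.0566) and Rpt6 (0.41, SE 0.13, adjusted p = 0.0591). On average Rpn8 stood at 157 CPM in young Cas9 and 118 CPM in young Opa1-mut, and at 128 CPM in old Cas9 and 145 CPM in old Opa1-mut, so its mean was lower in the mutant when young and higher when old. The count was 2 without replicate 2 of young Cas9, 1 without replicate 1 of old Cas9, and 4 with total count scaling, which moved the median to 0.36 and that of all genes by 0.0968. For Marf-mut the median was 0.08, with 22 of 32 above 0 and no subunit called by either tool (0.284% of all genes). There 1 of 32 had an unadjusted p under 0.05, beside 10.3% of all genes. For Drp1-mut the median was 0.01, with 16 of 32 above 0, and neither a subunit nor any other gene was called (0% of all genes) by edgeR. No subunit there had an unadjusted p under 0.05, beside 3.58% of all genes, and DESeq2 called 0 of 32.

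With the 3 libraries of a suspension summed to 1, the 8 suspensions became the replicates, with 3 residual degrees of freedom. No subunit was called for Drp1-mut, Marf-mut or Opa1-mut against Cas9, where 0.138%, 0.103% and 0.609% of all genes were called, or for age (3.72%). At an unadjusted p under 0.05 the counts were 0, 2, 1 and 0 of 32, beside 4.72%, 6.51%, 12% and 17.6% of all genes. DESeq2 called 0 in each. Marf-mut had 31 of 32 subunits below 0, with a median of -0.15, Opa1-mut had 27 above 0, with a median of 0.07, and Drp1-mut had 24 below 0, with a median of -0.05. The fit of Marf-mut against Opa1-mut over suspensions, chosen after seeing the data, called 0 of 32 (0.724% of all genes). All 32 were below 0 there, with a median of -0.22, and 8 had an unadjusted p under 0.05, beside 13.9% of all genes. The smallest p was that of Prosbeta1 (-0.34, SE 0.11, adjusted p = 0.205). DESeq2 called 0. None of the subunits called between libraries was called over suspensions. This fit takes each genotype difference over both ages together, and age over all genotypes together. It therefore did not retest the differences within old flies or with age in Opa1-mut alone.

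Genes that feed or serve the proteasome were read from 4 lists, beside the same shares of all genes called. The lists were chosen with earlier results of these data known. In Drp1-mut against Cas9 no gene of the 4 lists was called at either age. In old Opa1-mut against old Cas9, 2 of 26 genes of ubiquitin and its activation were called higher, a share near the 7.54% of all genes called higher: Ubc6, a ubiquitin-conjugating enzyme (296 ± 11.9 against 209 ± 12.9 CPM, log2 fold change 0.50, adjusted p = 0.000422), and the polyubiquitin gene Ubi-p63E (598 ± 45.9 against 483 ± 5.44 CPM, log2 fold change 0.31, adjusted p = 0.021). In old Marf-mut against old Opa1-mut, Ubi-p63E (421 ± 23.3 against 598 ± 45.9 CPM, log2 fold change -0.52, adjusted p = 0.000108), Ubc6 (-0.30, SE 0.08, adjusted p = 0.0118) and Ubc10 (-0.26, SE 0.09, adjusted p = 0.0386) fell, and the ligase gene Ubr3 rose (0.39, SE 0.12, adjusted p = 0.0294). The median of the list was 0.08 in the first comparison and -0.02 in the second, both nearer 0 than the subunits. In the second, 9.14% of all genes were called lower and 492 of 7244 higher. Ubi-p63E also rose in old against young Opa1-mut (0.39, SE 0.08, adjusted p = 0.00368). The ribosomal fusion genes RpL40 and RpS27A, which also encode ubiquitin, were called with age over suspensions at 0.31 and 0.34 (edgeR adjusted p = 0.0343 and 0.0345).

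Of 19 genes for assembly, partners and shuttles, REG was called higher in old Opa1-mut against old Cas9, a share of the list no larger than that of all genes (161 ± 6.07 against 109.8 ± 4.62 CPM, log2 fold change 0.56, adjusted p = 0.00176). REG is an alternative cap of the core that works without ubiquitin. Against old Opa1-mut, old Marf-mut had 3 lower: TER94, the ATPase that hands substrates to the proteasome (176 ± 7.33 against 234 ± 2.74 CPM, log2 fold change -0.42, adjusted p = 0.000598), the assembly chaperone Pomp (194 ± 3.42 against 244 ± 13.3 CPM, log2 fold change -0.34, adjusted p = 0.00485) and REG (-0.31, SE 0.10, adjusted p = 0.0322). The list's medians were 0.18 and -0.20, and 9.14% of all genes were called lower between the old fusion mutants. In old against young Opa1-mut, REG (0.42, SE 0.11, adjusted p = 0.0221) and the proteasome regulator PI31 (0.30, SE 0.09, adjusted p = 0.0277) rose, where 7.62% of all genes were called higher. Sem1, a small lid subunit whose symbol falls outside the member rule, rose in young Opa1-mut against young Cas9 (262 ± 14.8 against 187 ± 34.6 CPM, log2 fold change 0.50, adjusted p = 0.0426).

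Of 14 genes listed around cnc, its regulation and its targets, 6 rose in old Opa1-mut against old Cas9, where 7.54% of all genes were called higher, with a list median of 0.35. The strongest by p were Men, the malic enzyme (435 ± 36.8 against 267 ± 25.4 CPM, log2 fold change 0.71, adjusted p = 1.08e-05), GstD1, a glutathione transferase (347 ± 31.2 against 227 ± 33.6 CPM, log2 fold change 0.61, adjusted p = 0.000345), and ref(2)P, the fly p62 adaptor for ubiquitinated cargo (709 ± 45.4 against 498 ± 53.2 CPM, log2 fold change 0.51, adjusted p = 0.000765). Trxr-1, the thioredoxin reductase (312 ± 13.4 against 239 ± 18.4 CPM, log2 fold change 0.39, adjusted p = 0.00402), Gclc of glutathione synthesis (97.8 ± 9.22 against 65.7 ± 12.9 CPM, log2 fold change 0.59, adjusted p = 0.0124) and cnc itself (85.3 ± 6.85 against 58.8 ± 12.2 CPM, log2 fold change 0.55, adjusted p = 0.0259) also rose. Against old Opa1-mut, 5 of 14 fell in old Marf-mut, where 9.14% of all genes were called lower: ref(2)P (-0.72, SE 0.08, adjusted p = 1.19e-06), Men (-0.57, SE 0.09, adjusted p = 5.46e-05), Trxr-1 (-0.30, SE 0.08, adjusted p = 0.0147), GstD1 (-0.74, SE 0.16, adjusted p = 0.0171) and Gclm (-0.41, SE 0.14, adjusted p = 0.0477). In old against young Opa1-mut, where 7.62% of all genes were called higher, 5 rose, among them ref(2)P (0.72, SE 0.08, adjusted p = 1.83e-05), Men (0.47, SE 0.08, adjusted p = 0.00103), Trxr-1 (0.34, SE 0.08, adjusted p = 0.0106) and Keap1, the cytosolic inhibitor of cnc (0.98, SE 0.26, adjusted p = 0.0186), and NFAT fell (-0.49, SE 0.12, adjusted p = 0.0119). In young Opa1-mut against young Cas9, NFAT rose (0.72, SE 0.17, adjusted p = 0.0345). No gene of this list was called in any other mutant against Cas9. Whether the listed genes, NFAT among them, answer to cnc in these cells was not tested.

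Cytosolic chaperones were called in both directions. In old Opa1-mut against old Cas9, 4 of 28 rose, all subunits of the CCT chaperonin, which folds actin and tubulin, and 6 fell, all heat shock genes, for a list median of 0.00. Of all genes tested there, 7.54% were called higher and 402 of 7119 lower. CCT5 rose (215 ± 17.7 against 156 ± 6.9 CPM, log2 fold change 0.46, adjusted p = 0.00382), while Hsp70Bbb (-1.01, SE 0.11, adjusted p = 7.88e-07), Hsp70Bc (-0.81, SE 0.11, adjusted p = 1.72e-05), Hsp70Aa (-0.50, SE 0.09, adjusted p = 0.000402) and Hsp70Ba (-1.45, SE 0.18, adjusted p = 0.00157) fell. In old Marf-mut against old Cas9, 14 of 28 fell, where 206 of 7090 genes tested were called lower. Among the 14 were Hsp70Ab (-1.30, SE 0.09, adjusted p = 8.47e-10), Hsp26 (-0.98, SE 0.08, adjusted p = 8e-09), Hsp27 (-1.09, SE 0.09, adjusted p = 8.15e-09), the co-chaperone stv (-1.27, SE 0.11, adjusted p = 1.63e-08) and Hsp68 (-1.28, SE 0.11, adjusted p = 6.89e-07). Against old Opa1-mut, 16 of 28 were lower in old Marf-mut, where 9.14% of all genes were called lower, with a list median of -0.44. They were led by Hsp70Ab, Hsp26, Hsp27, stv and Hsp68 at log2 fold changes of -1.19, -1.10, -1.01, -1.15 and -1.02, each with an adjusted p of 4.65e-06 or less. The Hsp70 genes are near-identical copies, so reads may be divided among them. In young flies, stv (-0.81, SE 0.13, adjusted p = 0.0136) and Hsp68 (-0.62, SE 0.13, adjusted p = 0.0443) fell in Marf-mut against Cas9, and Hsp27 (0.42, SE 0.10, adjusted p = 0.0418) and l(2)efl, a small heat shock protein gene (2.05, SE 0.21, adjusted p = 3.03e-05), rose in Opa1-mut against Cas9. Between the young fusion mutants, where 62 of 7148 genes tested were called lower in Marf-mut, 6 heat shock and co-chaperone genes were lower in it, led by Hsp27 (-0.77, SE 0.11, adjusted p = 0.00219), Hsp70Ab (-0.90, SE 0.13, adjusted p = 0.00313) and stv (-0.80, SE 0.14, adjusted p = 0.0105).

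With age, 3 of 28 chaperones rose in Cas9, where 2.45% of all genes were called: Hsp70Bb (0.76, SE 0.13, adjusted p = 0.00421), Hsp67Bc (0.52, SE 0.10, adjusted p = 0.0114) and Hsp70Bbb (0.59, SE 0.12, adjusted p = 0.0157). Of the 28, 9 were below 0. In Drp1-mut Hsp70Ba rose (0.81, SE 0.16, adjusted p = 0.0287). In Marf-mut l(2)efl rose (1.74, SE 0.34, adjusted p = 0.0358), while Hsp70Ba (-0.82, SE 0.13, adjusted p = 0.00217), Hsp27 (-0.60, SE 0.10, adjusted p = 0.00241) and Hsp70Bbb (-1.01, SE 0.22, adjusted p = 0.0391) fell. In Opa1-mut, where 7.62% of all genes were called higher, 7 genes of the CCT chaperonin rose, among them CCT5 (0.49, SE 0.09, adjusted p = 0.00217) and CCT2 (0.52, SE 0.12, adjusted p = 0.00944), and Hsp27 fell (-0.34, SE 0.08, adjusted p = 0.00699). Over suspensions, stv was lower in Marf-mut than in Cas9 (-1.01, SE 0.13, adjusted p = 0.0357). GstD1 (-0.72, SE 0.11, adjusted p = 0.0227), stv (-0.94, SE 0.13, adjusted p = 0.0178) and Hsp26 (-0.95, SE 0.16, adjusted p = 0.0468) were lower there in Marf-mut than in Opa1-mut.

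In the authors' deposited table of each mutant against Cas9, no main subunit passed an adjusted p under 0.05 in any of the 6 comparisons. By direction, 0 of 32 subunits were below 0 in old Opa1-mut and 31 of 32 in young Marf-mut, in the authors' deposited table. In the authors' deposited table the values for old Opa1-mut were 0.30 for Prosbeta3 (adjusted p = 0.124), 0.32 for Rpt4 (0.145) and 0.41 for Rpn7 (0.122).

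The 14 paralogues held 317 UMIs in all, and 10 of them held 10 UMIs or fewer over the 24 libraries. In flies most genes of this kind are known from the testis, where they replace the main subunit in developing sperm. Rpt3R, named for Rpt3, was the only paralogue to pass the filter on low counts over the 24 libraries, with 176 UMIs in 22 libraries. Its UMIs came to 2.69% of those of Rpt3. Rpt6R held 64 UMIs in 19 libraries, Prosalpha4T1 held 21 and Rpn13R held 15. Prosbeta2R1 and Rpt4R held 10 each, Rpn12R 6, Prosalpha3T 4 and Prosalpha4T2 3. Prosbeta2R2, Prosbeta5R1 and Prosbeta5R2 held 2 each, and Prosbeta4R1 and Prosbeta4R2 held 1 each. For paralogues with so few UMIs no difference between groups was detectable at this depth. Testis markers, with 4 to 8 of 9 detected per group, summed to 1.28 to 24.8 CPM per library, and the highest sum was in young Cas9.

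**Figure D5:**
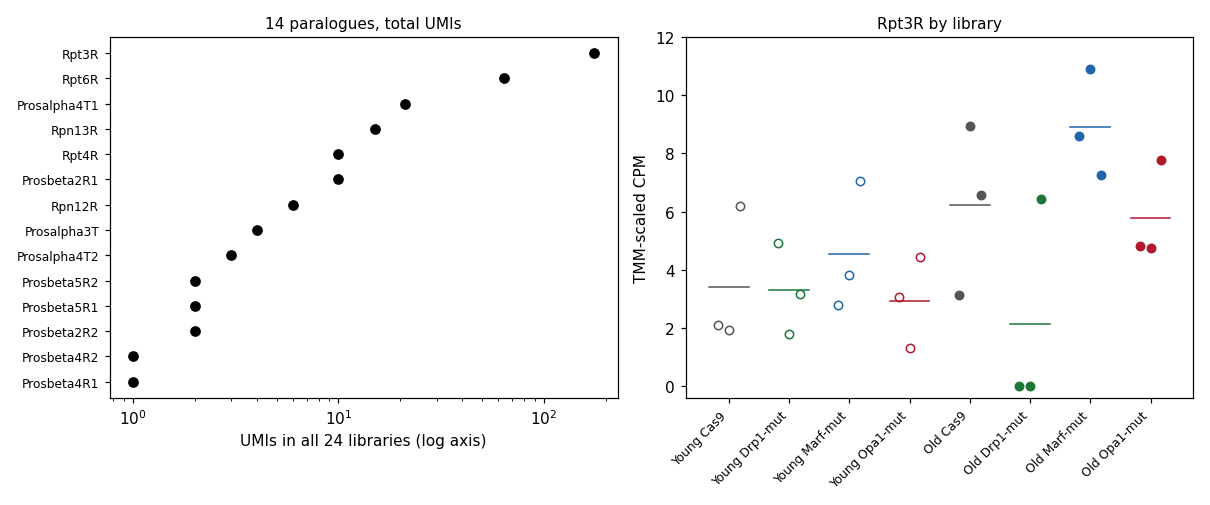
The left panel plots the total UMIs of the 14 paralogues over 24 libraries on a log axis, and the right panel the level of Rpt3R in each library (open, young; filled, old; bars, group means). Rpt3R has 176 UMIs, Rpt6R 64, and 10 paralogues have 10 or fewer. In the right panel 2 old Drp1-mut libraries lie at 0.

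The group mean of Rpt3R was higher when old than when young in Cas9, Marf-mut and Opa1-mut, and lower in Drp1-mut, with no call. It stood at 8.58, 10.9 and 7.26 CPM in old Marf-mut, 3.14, 8.93 and 6.56 CPM in old Cas9, 4.8, 4.75 and 7.78 CPM in old Opa1-mut and 0, 0 and 6.44 CPM in old Drp1-mut. The first 2 old Drp1-mut libraries had no UMI of it, which at the depth of those libraries allows up to 3 counts each. The young libraries held 2.09, 1.95 and 6.19 CPM in Cas9, 4.91, 1.8 and 3.18 CPM in Drp1-mut, 2.79, 3.82 and 7.05 CPM in Marf-mut and 3.06, 1.33 and 4.43 CPM in Opa1-mut. Its old and young libraries did not overlap in Marf-mut (0.84, SE 0.46, adjusted p = 0.401) or in Opa1-mut, but the gaps were small. The nearest young and old libraries held 7.05 and 7.26 CPM in Marf-mut (17 and 13 UMIs). In Opa1-mut they held 4.43 and 4.75 CPM (7 and 7 UMIs). In Opa1-mut 16.8% of all genes lay wholly higher when old. Unlike the main subunits, Rpt3R was above 0 in old Marf-mut against old Opa1-mut (0.57, SE 0.40, adjusted p = 0.383), and the difference was not called. Rpt6R averaged 3.55 ± 2.68 CPM in young Drp1-mut and 0.739 ± 0.787 CPM in young Cas9 (SD, n = 3), from 19 and 4 UMIs. Of the 19, 11 came from replicate 2 alone. Young Opa1-mut averaged 2.90 ± 1.26 CPM, from 13 UMIs.

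CG30382 is named as a paralogue of Prosalpha1 in the Ensembl annotation (Prosalpha1R), but its symbol in the count table keeps it outside the member rule. The sequences of both genes were not compared. It is described here because reads could be divided between both genes, and it was chosen after its values were seen. It starts 3110 bases from Prosalpha1 on 2R, and its 2414 UMIs, found in all 24 libraries, came to 22.6% of those of Prosalpha1. It stood at 102, 76.6 and 91.2 CPM in young Opa1-mut and 44.4, 67 and 54.9 CPM in young Cas9 (log2 fold change 0.72, SE 0.16, adjusted p = 0.0297), where Prosalpha1 was at 299.5, 308 and 321 and 292, 306 and 278 CPM and was not called (0.10, SE 0.09, adjusted p = 0.61). In old Opa1-mut it stood at 57.6, 76.7 and 63.8 CPM, lower than in young Opa1-mut (-0.45, SE 0.14, adjusted p = 0.0451), while Prosalpha1 stood at 328, 318 and 322 CPM. Each of these 2 calls of CG30382 held in 2 of 6 fits that left out 1 library. The authors' deposited table gives it 0.71 in young Opa1-mut against young Cas9, with an adjusted p of 0.502. Values of Prosalpha1 and CG30382 are therefore uncertain to the extent that counting divided shared reads.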

How the data were processed

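The authors deposited a table of UMI counts per gene for the 24 libraries, with 1 column per library and whole, unnormalised counts. Per the labels' protocols, about 1000 sorted cells per library were lysed, polyadenylated RNA was captured, and libraries were made by Smart-seq3, which tags the 5′ end of each cDNA molecule, and Nextera XT. The submitters' processing notes name STAR, DESeq2 and the build dm6; their versions, the annotation and the UMI counter are not given here by any source used. The authors also deposited DESeq2 tables of each mutant against Cas9 with log2 fold changes, p-values and other scores per gene (a mean of normalised counts, a standard error and a Wald statistic, per the file headers).

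Counts were fitted with edgeR 4.0.16 (R 4.3.3): TMM factors, filterByExpr by group, robust quasi-likelihood fits on the libraries of the groups compared, and Benjamini-Hochberg adjustment over all genes tested. SE is the absolute log2 fold change divided by the square root of F. DESeq2 1.42.0, other scalings, filters, a replicate block, a depth covariate and leaving out each library were alternatives. Libraries held 684175 to 2889269 UMIs, which are not corrected for cells per pool, and limits at 0 cover counting error only. The fits were tested on simulated data. The members and lists were chosen with earlier results of these data known. Members called in any comparison, and in each mutant against Cas9 the 3 main subunits with the smallest p, were given by library; from each list, called genes were named, up to 5 per comparison by smallest p. No 2 libraries of a group agreed within sampling noise, and each counted as 1. Gene positions come from the Ensembl annotation of BDGP6 (dm6). Gene sequences were not used here.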

Additional observations from a re-analysis of the deposited data

Results flagged for a closer look

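The difference of a mutant from Cas9 changed between ages, by an interaction term in edgeR with Benjamini-Hochberg adjustment, for the following genes. Values are log2, as the difference in old flies minus that in young flies, so a value above 0 means higher in the mutant relative to Cas9 when old than when young. None of the 32 main subunits is among them.

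In Opa1-mut, 1 of 26 ubiquitin genes, 1 of 19 partners, 1 of 14 genes around cnc and 2 of 28 chaperones were called above 0. Called below 0 were 0, 1, 1 and 4 genes of these lists in the same order. Of 7411 genes tested, 175 were called above 0 and 242 below 0. The list genes called above 0 were Men at 0.72 (SE 0.131, adjusted p = 0.00287), REG at 0.644 (SE 0.165, adjusted p = 0.0234), CCT3 at 0.64 (SE 0.183, adjusted p = 0.0419), CCT4 at 0.53 (SE 0.155, adjusted p = 0.0474) and Ubc6 at 0.502 (SE 0.13, adjusted p = 0.0248). The small lid gene Sem1 lay at -0.633 (SE 0.181, adjusted p = 0.0443) and NFAT at -0.737 (SE 0.206, adjusted p = 0.0371). CG30382, named as a paralogue of Prosalpha1, lay at -1.02 (SE 0.237, adjusted p = 0.0141). Of the heat shock genes, Hsp70Ba lay at -1.83 (SE 0.381, adjusted p = 0.0296), Hsp70Bc at -1.01 (SE 0.219, adjusted p = 0.0174), Hsp70Bb at -0.695 (SE 0.149, adjusted p = 0.00939) and Hsp27 at -0.485 (SE 0.131, adjusted p = 0.0303).

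In Marf-mut, 3 of 28 chaperones were called below 0, where 19 of 7385 genes tested were called below 0. Hsp70Bbb lay at -1.58 (SE 0.275, adjusted p = 0.0222), Hsp70Ba at -1.43 (SE 0.24, adjusted p = 0.0222) and Hsp27 at -0.737 (SE 0.153, adjusted p = 0.0359). Leaving out each of the 12 libraries in turn, the calls of Men, Hsp70Bb and CG30382 in Opa1-mut held in 12 of 12 fits, Hsp70Bc in 9 and REG in 8. Ubc6 and Hsp70Ba held in 5, NFAT and Hsp27 in 4, and Sem1 and CCT3 in 3; CCT4 was not refitted. In Marf-mut, Hsp70Bbb held in 6, Hsp70Ba in 5 and Hsp27 in 3. The Hsp70 genes are near-identical copies, so the share of reads counted for each is uncertain.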

How the results depend on the processing

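Alternatives were run for 40 subunit values, the 25 calls and the 15 uncalled values with the smallest p, and none reversed (520 values). None of 1235 values of other named genes reversed, and 312 were no longer called. Of the 25 subunit calls, DESeq2 lost 20, all 24 libraries in 1 fit lost 15, total count scaling 5, log2 depth as a covariate 3 and a replicate block 1. In old Marf-mut against old Opa1-mut 31 of 32 subunits were below 0 with total count scaling, beside 32 with TMM.

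The 3 calls in old Opa1-mut against old Cas9 became 10 with total count scaling, 5 with a replicate block, 1 with all 24 libraries in 1 fit and 0 with the depth covariate or DESeq2. The 21 calls in old Marf-mut against old Opa1-mut became 8 with all 24 libraries and 4 with DESeq2. The 9 calls among the old genotypes became 17 with total count scaling, 14 with no filter on low counts, and 2 with the depth covariate or DESeq2. The 0 calls of the Opa1-mut interaction became 4 with total count scaling, 2 with no filter and 1 with a replicate block. Replicate numbers do not pair the libraries: deviations of same-numbered libraries had a median correlation of 0.00462 in old and -0.0268 in young flies.

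Median log2 fold changes of the subunits moved by more than the spread between libraries (SD 0.066) in a few settings. Total count scaling moved old Marf-mut against old Cas9 from -0.08 to 0.00402, where all genes shifted by 0.0872, and the depth covariate moved it to -0.23. Total count scaling moved age from -0.13 to -0.24 in Cas9 and from -0.12 to -0.25 in Drp1-mut, where all genes shifted by -0.118 and -0.126, and over suspensions to -0.12, where all genes shifted by -0.0854. The depth covariate moved age to 0.00051 in Cas9 and -0.026 in Drp1-mut. The interaction median moved to 0.10 for Drp1-mut with the depth covariate, and to 0.15 for Marf-mut and 0.36 for Opa1-mut with total count scaling, where all genes shifted by 0.0667 and 0.0968. Relative to the median of all genes, the subunits' median in these settings of total count scaling stayed within 0.02 of that with TMM. Depths did not overlap between the groups in old Opa1-mut and old Marf-mut against old Cas9, or between ages in Cas9 and Drp1-mut. There the depth covariate and the group can hardly be told apart. The cause of the shifts with depth was not tested.

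Leaving out 1 library gave 0 to 4 calls in old Opa1-mut against Cas9, 10 to 20 in old Marf-mut against old Opa1-mut, 1 to 11 among the old genotypes, 0 to 2 in the Opa1-mut interaction, and 0 to 1 in young Opa1-mut and in old Marf-mut against Cas9. Medians then ranged from -0.189 to -0.0861 in young Marf-mut, from -0.153 to -0.0134 in old Marf-mut and from -0.0299 to 0.0796 in the Drp1-mut interaction. Without 1 suspension they ranged from -0.12 to 0.0348 for Drp1-mut, -0.199 to -0.0823 for Marf-mut, -0.0691 to 0.195 for Opa1-mut, -0.1003 to -0.0118 for age, and -0.349 to -0.0953 for Marf-mut against Opa1-mut. Of the list genes, these calls held in 1 of 6 such fits: Sem1 and NFAT in young Opa1-mut, Hsp68 in young Marf-mut, REG with age in Opa1-mut, and Gclm and REG between the old fusion mutants. These held in 2 of 6: stv in young Marf-mut, Hsp27 in young Opa1-mut, Ubi-p63E in old Opa1-mut, Ubr3, Ubc10 and GstD1 between the old fusion mutants, Keap1 and PI31 with age in Opa1-mut, Hsp70Ba with age in Drp1-mut, and l(2)efl with age in Marf-mut. RpL40 and RpS27A with age held in 2 of 8 fits without a suspension. With 2 libraries left in a group, the spread was taken from both groups. Low counts of the paralogues limited what could be seen in them.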
